A study of Mus musculus with 29 samples.

Results

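The regions described here are the binding sites of the glucocorticoid receptor (GR) that were listed in mouse liver under every condition studied and in both genotypes. They were chosen by merging the peaks of 6 GR ChIP-seq lists that overlapped by at least 1 bp and keeping each merged region that held a peak of all 6 lists. Of 15329 merged regions, 1545 were kept (10.1%), and they are called core regions below. The rule used presence in the lists and so, through each list's lowest score, the peak scores. Presence and scores are therefore given as a description with no test, while ChIP-exo borders, C/EBPβ peaks and spacing along the chromosomes were not used by the rule.

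The mice were males of 12 weeks, back-crossed to BALB/c for at least 4 generations and kept on a 12 h light cycle. They were wild type (WT, GR+/+ litter-mates) or GRdim, a strain whose GR is mutated so that 2 receptors pair poorly. Livers were taken at 6am, the beginning of the light phase, at 6pm, the beginning of the dark phase, or at 6am after 24 h with subcutaneous prednisolone pellets at 12 mg/kg. GR was profiled in all 6 groups by ChIP-seq and by ChIP-exo. C/EBPβ was profiled by ChIP-seq in the 3 WT groups only. Every list pools 2 replicates, so a condition is 1 measurement with no replicate spread, no p-value is given, and each 95% interval covers only the counting of regions. Whole liver was used, so fewer cells that carry the bound receptor and less receptor bound per cell cannot be told apart.

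GR is a nuclear receptor that is activated by corticosterone in rodents, whose level rises towards the active dark phase, and by synthetic agonists such as prednisolone. It binds DNA as a pair of receptors on a palindromic element of 2 inverted half-sites, and it can also reach DNA at single half-sites or beside other factors. C/EBPβ is a leucine zipper factor abundant in hepatocytes that is known to keep chromatin accessible for GR. In ChIP-exo an exonuclease trims the precipitated fragments from their 5′ ends until it meets the crosslinked protein. Each protected site leaves a border on the plus strand and another on the minus strand, and the distance between the borders reflects the width of the protected stretch.

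Core regions made up a different share of each list because the lists differ in length. They held 26.7% of the 5781 WT peaks at 6am, 10.8% of the 14270 at 6pm and 35.9% of the 4304 after prednisolone. In GRdim they held 48.5% of 3183 peaks at 6am, 20.8% of 7440 at 6pm and 48.2% of 3208 after prednisolone. Among the 100 highest-scoring peaks of each GRdim list, 97 at 6am, 97 at 6pm and 91 after prednisolone were core. In WT these counts were 78, 88 and 60, so the highest WT peaks after prednisolone were core least often of the 6 lists.

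Regions just outside the rule lacked 1 list. There were 1011 of them, and the missing list was GRdim after prednisolone for 348, WT after prednisolone for 331, GRdim at 6am for 267 and WT at 6am for 55. It was a 6pm list for 10 only, 6 in WT and 4 in GRdim. Within each list these regions scored below core regions, with WT medians of 3.08 (6am), 5.63 (6pm) and 2.74 (prednisolone) against 4.07, 7.38 and 3.27 for core. In GRdim the medians were 2.60, 3.48 and 2.45 against 3.29, 4.74 and 3.05. Just inside the rule, 149 core regions had a score under 2.1, close to the lowest score of the lists, in at least 1 list, and 73 of the 1545 had one in the GRdim list after prednisolone. Against these stood 0 core regions with such a score in the WT 6pm list and 1 in the GRdim 6pm list.

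Each core region held exactly 1 peak of each list. The merged regions were 205 to 513 bp wide with a median of 244 bp, the individual peaks being 200 bp each. The 6 peak centres of a region spanned a median of 44.0 bp, and at 927 regions they lay within 50 bp. The mean WT centre and the mean GRdim centre were a median of 11.3 bp apart. The 3 WT centres spanned a median of 25 bp and the 3 GRdim centres 28 bp. A distance between means and a span of single centres are unlike measures, so neither was read against the other.

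The order of the core regions by score was only partly shared between lists. Scores have no stated unit, so each list was ranked on its own, with rank 1 the highest of 1545. Spearman's rho between 2 WT lists was 0.81 for 6am with 6pm, 0.74 for 6am with prednisolone and 0.65 for 6pm with prednisolone. Between 2 GRdim lists it was 0.64, 0.57 and 0.67 in the same order, and between WT and GRdim lists it ran from 0.38 to 0.70. These values describe 1545 regions that share their libraries. Among the 100 highest ranks, 65 regions stood there in all 3 WT lists, 33 in all 3 GRdim lists and 11 in all 6.

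The best mean rank over the 6 lists belonged to chr7:71041787-71042067. Its scores were 23.41, 26.16 and 25.41 in the WT lists of 6am, 6pm and prednisolone and 9.22, 15.67 and 7.10 in GRdim, and its ranks were 2, 2 and a tie for first in WT and 16, 1 and 14 in GRdim. It was near the top of all 6 lists, with the highest GRdim score at 6pm. The region also had the most ChIP-exo signal by its mean over the 6 libraries. The signal is given as RPM, the tags of listed borders within 100 bp of the peak centre scaled to library size by the authors. It came to 72.5, 83.8 and 106 RPM in WT and 6.42, 17.5 and 11.5 RPM in GRdim. C/EBPβ peaks scored 21.18, 19.05 and 17.63 there.

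The second region, chr1:74061219-74061473, ranked 8, 15 and 3 in WT and 10, 4 and 6 in GRdim. Its C/EBPβ scores, 5.06, 6.69 and 4.56, lay below the core medians. The highest WT score at 6pm, 26.35, was at chr4:150059263-150059509, which ranked 3 in GRdim at 6am, 19 at 6pm and 52.5 after prednisolone. On the same chromosome, chr4:150129585-150129796 ranked 10, 11 and 18 in WT and 32, 5 and 27.5 in GRdim. In ChIP-exo its strongest borders were 30 bp apart in all 3 WT libraries and 47, 44 and 35 bp apart in GRdim.

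chr2:27480413-27480726 was the leading GRdim region. Its GRdim scores were 14.90, 15.38 and 13.57, ranks 1, 2 and 1, and its WT scores 14.16, 18.67 and 14.60 gave ranks 44, 33.5 and 32. ChIP-exo at this region gave 13.6, 28.2 and 19.5 RPM in WT and 19.2, 19.1 and 14.7 RPM in GRdim, so at 6am the GRdim library had the higher value. A neighbour, chr2:27416222-27416458, ranked 48, 17 and 98 in WT and 6, 7 and 10 in GRdim. The other 4 of the 10 best were chr6:72112181-72112413, chr12:16625335-16625564, chr8:129260457-129260689 and chr11:68910477-68910688. At these 10 regions the WT library had the higher RPM in 9 pairs at 6am and in all 10 pairs under each of the other conditions.

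The highest WT scores at 6am, 23.56, and after prednisolone, 25.41, were at chr2:167670123-167670363, the latter tied with the chromosome 7 region above. Its GRdim scores were 3.91 at 6am, rank 513, against 14.89 at 6pm, rank 3, and 7.32 after prednisolone, rank 9. ChIP-exo followed the same order, with 2.02 RPM in GRdim at 6am, 16.9 RPM at 6pm and 5.60 RPM after prednisolone, and 60.4, 96.2 and 99.5 RPM in WT. Its C/EBPβ scores, 2.41, 4.12 and 2.94, were below the core medians.

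**Figure D1:**
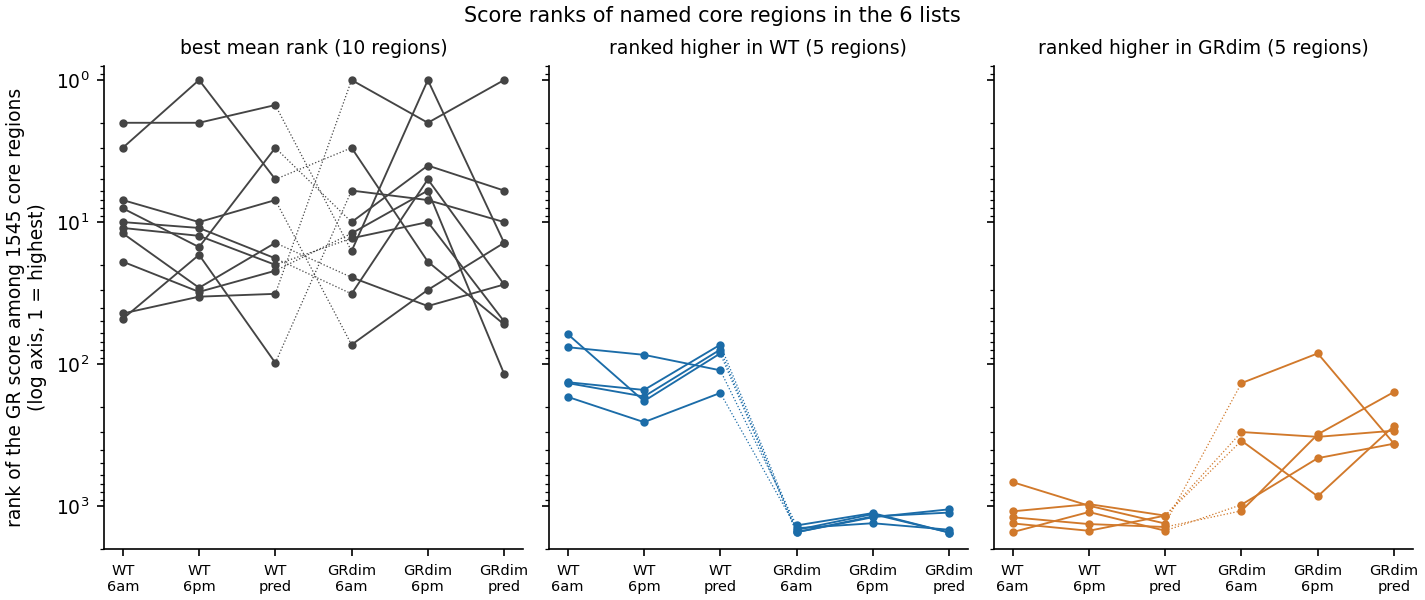
Rank of the GR score in each of the 6 lists (vertical log axis, 1 = highest of 1545 core regions) for the 10 regions of best mean rank, the 5 ranked most above GRdim in WT and the 5 ranked most above WT in GRdim. Each line is 1 region, and a dotted stretch joins the genotypes. The first set stays at rank 117 or better in all 6 lists, while the second falls from rank 256 or better in WT to rank 1052 or lower in GRdim.

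Some core regions stood high in 1 genotype and near the end of the ranking in the other. The 5 regions with the largest drop in mean rank from WT to GRdim were chr17:26729552-26729818, chr12:111392495-111392734, chr3:146233127-146233365, chr12:16637226-16637529 and chr5:99713455-99713686. For the first of them the WT scores were 9.40, 13.70 and 11.37, ranks 134, 152 and 73. Its GRdim scores were 2.17, 3.90 and 2.01, ranks 1469, 1136 and 1532. ChIP-exo gave 10.4, 18.8 and 16.2 RPM in WT and 0.316, 1.78 and 0.310 RPM in GRdim. All 5 had the higher RPM in WT under all 3 conditions.

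The strongest ChIP-exo borders of these 5 regions were 30, 30, 30, 31 and 29 bp apart in WT at 6am, in the order given. After prednisolone they were 30, 30, 31, 31 and 30 bp apart, and at 6pm 53, 30, 31, 35 and 30 bp. The rank difference came from ChIP-seq and the distance from ChIP-exo, and the distance was not part of how the regions were picked. The regions were, however, picked partly for high WT ranks, where this distance is commoner. In WT at 6am, borders lay 29 to 31 bp apart at 9.12% of all peaks with both borders. The share was 22.2% for core regions in the highest of 5 classes of WT 6am score. In GRdim at 6am, 4 of the 5 lacked a border on at least 1 strand.

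The 5 regions that ranked most above WT in GRdim were chr5:137789971-137790202, chr18:42108890-42109120, chr5:93150749-93151018, chr8:46347340-46347588 and chr6:95663288-95663549. The first scored 2.78, 3.84 and 2.63 in WT, ranks 1322, 1489.5 and 1165, and 4.38, 4.53 and 4.16 in GRdim, ranks 346, 852 and 272. ChIP-exo there gave 2.67, 1.39 and 2.82 RPM in WT and 3.86, 5.61 and 4.27 RPM in GRdim. WT had the higher RPM at 2 of these 5 at 6am, 2 of 5 at 6pm and 0 of 5 with prednisolone. At chr5:93150749-93151018 the borders were 25, 26 and 26 bp apart in the 3 GRdim libraries. In WT they were 30 bp apart at 6am, 29 bp at 6pm and 98 bp after prednisolone.

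Between 6am and prednisolone, the mean rank over both genotypes improved most at chr4:71722052-71722300, chr17:80394630-80394976 and chr5:130509933-130510159. At chr17:80394630-80394976 the ranks went from 1505 to 289.5 in WT and from 1078 to 406 in GRdim, and ChIP-exo from 0.951 to 4.75 RPM and from 0.981 to 1.93 RPM. At chr4:71722052-71722300 the ranks went from 1544 to 926 in WT and from 1508 to 82 in GRdim, while ChIP-exo went from 0.537 to 5.91 RPM in GRdim and stood at 1.26 and 1.24 RPM in WT. The largest worsening was at chr4:108035178-108035430, chr13:31639560-31639779 and chr13:46114953-46115189. At chr13:31639560-31639779 the ranks went from 227 to 988 in WT and from 20.5 to 1188 in GRdim. ChIP-exo there was 7.52 RPM in WT and 7.46 RPM in GRdim at 6am, and after prednisolone no border was listed in WT and GRdim had 0.929 RPM.

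C/EBPβ peaks overlapped nearly all core regions, and they did so more often than other GR regions. At 6am, 94.4% of the 1545 core regions overlapped a C/EBPβ peak (95% interval 93.2% to 95.5%), where 67.3% of all GR regions did. At 6pm the share was 97.3% (96.4% to 98.0%) with 79.8% of all GR regions, and after prednisolone 87.4% (85.7% to 89.0%) with 58.4% of all. Set against the other regions listed in WT under the same condition, core was higher by 19.4 points at 6am (17.6 to 21.0), 15.6 points at 6pm (14.5 to 16.6) and 17.6 points after prednisolone (15.2 to 19.9). Regions in all 3 WT lists and no GRdim list, 546 in number, had C/EBPβ shares of 53.7%, 63.2% and 54.2%.

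The share was higher with every further GR list that held a region. At 6am it was 55.7% for regions of 1 list, 62.7% for 2, 69.8% for 3, 82.2% for 4, 88.6% for 5 and 94.4% for all 6. Overlap was counted over the whole merged region, which can be wider where more peaks are merged, and also where WT had no GR peak in that condition. With C/EBPβ centres within 100 bp of the WT GR centre, core exceeded other regions listed in WT by 17.9, 13.0 and 15.7 points. Regions in more lists also have higher scores. Core and other regions were therefore compared within 5 classes of WT 6pm score that each held about 20% of the core regions. Core was higher in all 5 classes under all 3 conditions, by 13.2 to 15.8 points at 6am, by 3.90 to 11.2 points at 6pm and by 5.90 to 14.9 points after prednisolone. All 15 intervals lay above 0, and the mean over the classes was 14.6, 7.81 and 11.7 points. The lowest class has no lower limit, so scores were poorly matched within it. At 6pm it held 308 core and 11159 other regions and had the largest difference, 11.2 points.

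**Figure D2:**
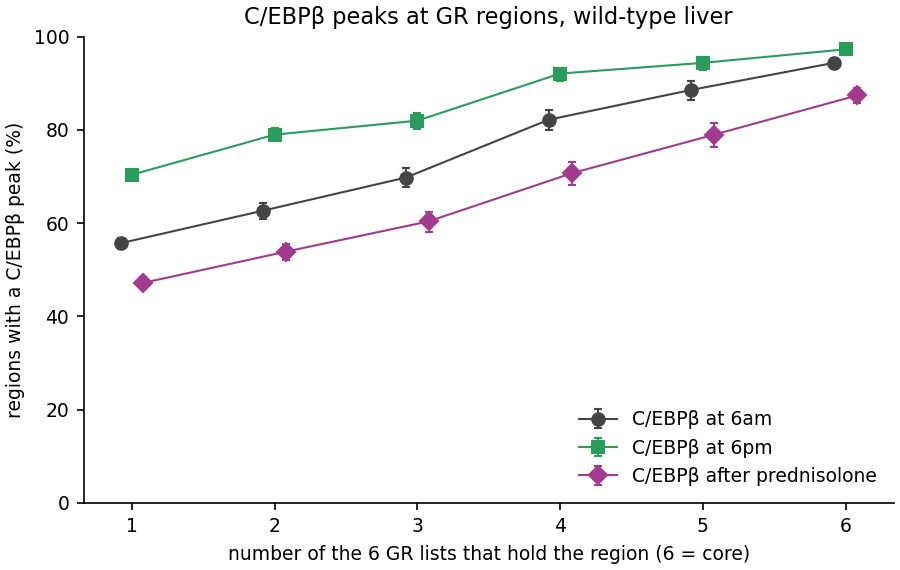
Share of GR regions that overlap a C/EBPβ peak (percent, 95% Wilson intervals) by the number of GR lists that hold the region, for the 3 WT C/EBPβ lists. All 3 lines rise from regions of 1 list to core regions, at 6am from 55.7% to 94.4%.

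C/EBPβ peaks at core regions also scored high within their own lists. The median C/EBPβ score at core regions was 7.31 at 6am, 8.25 at 6pm and 6.75 after prednisolone. It was 4.74, 4.68 and 5.57 at other regions listed in WT in that condition, and 3.62, 3.71 and 3.63 over all C/EBPβ peaks. Of the 100 highest C/EBPβ peaks, core regions held 48 (6am), 59 (6pm) and 41 (prednisolone), although only 5.73% to 6.74% of all C/EBPβ peaks lay in them. The C/EBPβ centre lay a median of 30, 25 and 29 bp from the WT GR centre at core regions, and 30, 24 and 27 bp at the other regions, so the spacing was nearly the same.

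At 1342 core regions (86.9%) a C/EBPβ peak was listed under all 3 conditions, where 54.0% of all GR regions had one. The commonest departure was a peak at 6am and 6pm that was not listed after prednisolone, at 110 regions, followed by a peak at 6pm alone, at 45. From 6am to 6pm core regions gained 52 C/EBPβ peaks and lost 7, a change of 2.91 points (paired interval 1.97 to 3.96). Of all GR regions, 13.5% gained a C/EBPβ peak in that comparison and 0.992% lost one. At 6am 94.4% of core regions already had a peak, against 67.3% of all GR regions, so a smaller share of core regions could gain one. From 6am to prednisolone, core regions lost 116 and gained 8, a change of -6.99 points (-8.43 to -5.65), and of all GR regions 13.1% lost one and 4.23% gained one.

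The 116 core regions that lost C/EBPβ after prednisolone had low C/EBPβ scores at 6am, with a median of 2.71 against 7.88 for the 1343 that kept it. Their median GR rank in WT was 705 at 6am and 1016 after prednisolone, while regions that kept C/EBPβ had medians of 770 and 746. In GRdim, where C/EBPβ was not profiled, the ranks at those regions were 634 and 844.

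At 33 core regions (2.14%) no C/EBPβ peak was listed under any condition, where this held for 17.5% of all GR regions. Their GR ranks were lowest in both 6pm lists, with medians of 1515 in WT and 1389.5 in GRdim. They were also below the middle in WT at 6am (1197) and after prednisolone (949), and near the middle or better in GRdim at 6am (669.5) and after prednisolone (758). The medians of the other core regions lay between 764 and 780.5 in all 6 lists. Median ChIP-exo signal in WT was 1.60 RPM at 6am, 1.11 RPM at 6pm and 1.10 RPM after prednisolone, against 2.75, 4.29 and 1.85 RPM at the other core regions. In GRdim it was 1.52, 0.913 and 1.35 RPM against 1.01, 2.35 and 1.95 RPM. The signal was thus below that of the others in 5 of the 6 libraries, with GRdim at 6am the exception, and after prednisolone GRdim had the lower signal at a middling rank. The highest-ranked of them was chr11:68910477-68910688, with GR scores of 16.48, 18.82 and 16.14 in WT and 9.80, 12.05 and 5.06 in GRdim.

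ChIP-exo borders were listed at nearly all core regions. A border lay within 100 bp of the peak centre at 99.7%, 98.6% and 98.3% of core regions in the WT lists of 6am, 6pm and prednisolone, where 97.5%, 76.8% and 95.2% of all peaks of the list had one. In GRdim the shares were 87.9%, 97.9% and 98.8%, with 77.2%, 81.9% and 97.0% of all peaks. No core region lacked a border in every library, and 1289 (83.4%) had one in all 6, or 94.1% in the 5 libraries without GRdim at 6am. That library stood apart from the rest: it was the smallest library and listed 14391 borders against 35220 to 66573. Of its listed tags, 74.6% lay on the mitochondrial genome against 5.21% to 54.2%, or 1.61% of the whole library against 0.170% to 1.18%. The part of these differences in the GRdim 6am values below was not tested.

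Core exceeded the other peaks of the same list in border share by 3.02 points in WT at 6am (2.38 to 3.62) and by 24.4 points at 6pm (23.4 to 25.3). After prednisolone it did so by 4.74 points (3.58 to 5.86). In GRdim the differences were 20.8 points (18.0 to 23.6), 20.1 points (18.8 to 21.4) and 3.59 points (2.45 to 4.79). Within 5 classes of the score of the same list, the mean difference was 0.757, 4.54 and 2.90 points in WT and 4.08, 3.49 and 0.804 points in GRdim. Intervals that excluded 0 stood only in the lowest class (WT in all 3 lists, GRdim at 6am and 6pm) and in the class above it for GRdim at 6am. In most of the higher classes core and other peaks were both at or near 100%, so this measure could show little difference there. Counting only borders of at least 20 tags, the differences without score classes were 31.2, 55.8 and 9.22 points in WT and 17.8, 50.2 and 29.9 points in GRdim.

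The median ChIP-exo signal of a core region was 2.73 RPM in WT at 6am (interval of the median 2.62 to 2.89), 4.27 RPM at 6pm (4.08 to 4.48) and 1.84 RPM after prednisolone (1.75 to 1.96). In GRdim it was 1.04 RPM (0.980 to 1.14), 2.31 RPM (2.19 to 2.44) and 1.95 RPM (1.86 to 2.04). These medians stood for 33 tags per region in GRdim at 6am and for 88 to 184 in the other 5 libraries. Only tags of listed borders were summed, which made up 1.54% (GRdim 6pm) to 3.27% (WT 6pm) of a library. The sums and their ratios therefore also depend on how many borders were listed, and that part was not tested. Other peaks of the same lists had 1.15, 0.487 and 1.37 RPM in WT and 0.348, 0.434 and 0.929 RPM in GRdim. Of all border tags near GR peaks, core regions held 47.5%, 41.7% and 43.1% in WT and 73.3%, 53.2% and 65.6% in GRdim.

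Signal in GRdim was below WT at most core regions at 6am and 6pm and at about as many regions as not after prednisolone. The median ratio of GRdim to WT was 0.445 at 6am (0.414 to 0.480, 1358 regions with a border in both libraries), 0.525 at 6pm (0.505 to 0.562, 1493 regions) and 1.02 after prednisolone (0.986 to 1.08, 1502 regions). GRdim had the higher value at 15.6% of these regions at 6am, 19.3% at 6pm and 51.1% after prednisolone. Over all regions of both lists with a border in both, the shares were 15.3%, 23.7% and 49.8%, so core regions were close to the background at 6am and after prednisolone. Counting only the strongest border of each strand, the 6am ratio was 0.840, and with borders of at least 20 tags the ratio was 0.269 at 6pm and 0.676 after prednisolone.

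The ChIP-exo ratio of the genotypes went with the difference of their ChIP-seq ranks. Core regions were split into 3 classes of about equal size by the difference of mean rank between WT and GRdim. In the class ranked higher in GRdim, the median ratio of GRdim to WT was 0.681 (6am), 0.864 (6pm) and 1.50 (prednisolone). In the middle class it was 0.471, 0.537 and 1.04, and in the class ranked higher in WT 0.219, 0.268 and 0.488. The order was the same under each condition.

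**Figure D3:**
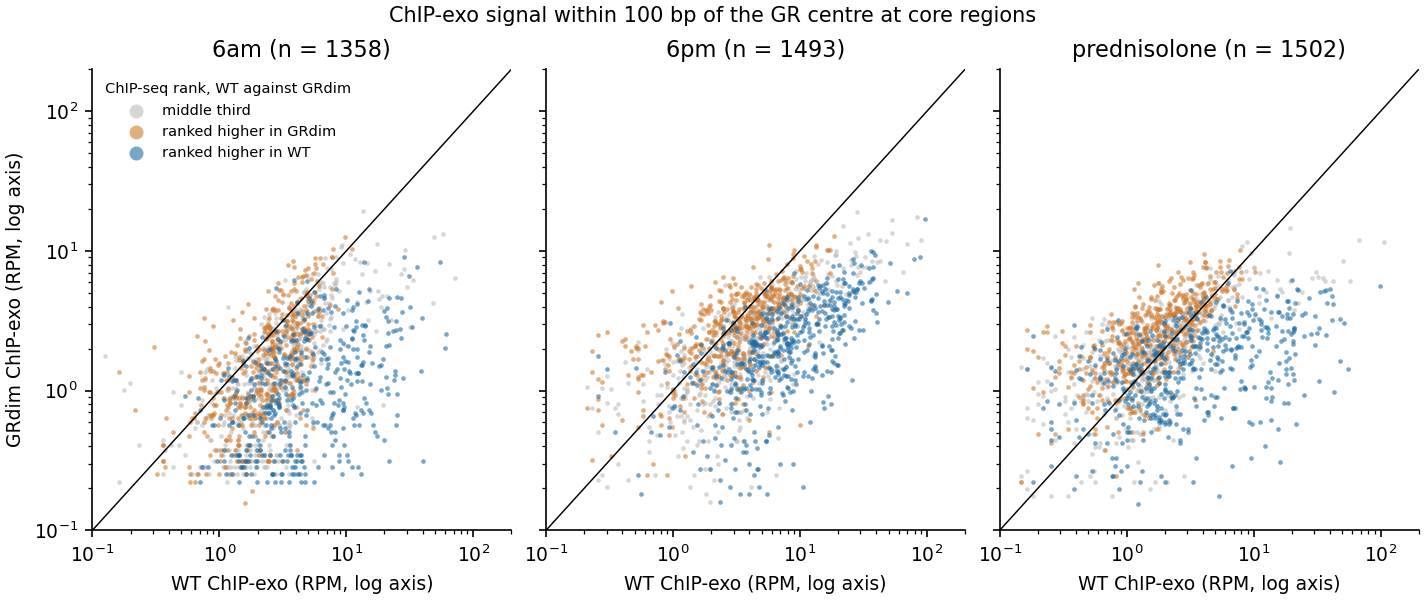
ChIP-exo signal of GRdim against WT at core regions (RPM within 100 bp of the GR centre, log axes), 1 panel per condition. Each point is 1 region with a border in both libraries, coloured by class of the ChIP-seq rank difference, and the line marks equal values. Most points lie under the line at 6am and 6pm, and after prednisolone they lie on both sides of it with a median ratio of 1.02.

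Within a genotype, signal was higher at 6pm than at 6am. The median ratio was 1.53 in WT (1.49 to 1.58) and 1.90 in GRdim (1.80 to 2.00), and 77.0% of core regions in WT and 77.4% in GRdim had the higher value at 6pm. Over all regions of both lists these shares were 71.4% and 73.8%. From 6am to prednisolone the median ratio was 0.756 in WT (0.732 to 0.783) and 1.55 in GRdim (1.48 to 1.63). The higher value was after prednisolone at 30.9% of core regions in WT and 71.4% in GRdim, where the shares over all regions of both lists were 37.8% and 72.4%. With the strongest border of each strand only, the 4 ratios were 1.78, 1.20, 0.928 and 1.02 in the order of WT 6pm, GRdim 6pm, WT prednisolone and GRdim prednisolone. Each GRdim ratio has the 6am library that stood apart as its denominator.

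For each region and library the border with the most tags was taken on each strand, and the distance between the pair was measured. At core regions 3 ranges stood above their surroundings in at least 1 genotype: 10 to 12, 24 to 26 and 29 to 31 bp. These ranges had been seen in earlier results of these data. The shares and differences given for them are therefore a description and no independent evidence. In WT at 6am, 113 of 1479 regions with both borders had them 29 to 31 bp apart (7.64%), 72 had them 24 to 26 bp apart (4.87%) and 151 had them 10 to 12 bp apart (10.2%). The share per 3 bp between 40 and 60 bp, taken as the surrounding level, was 2.14%. For all WT 6am peaks with both borders the 3 shares were 9.12%, 4.17% and 10.3%. The commonest distance above 15 bp was 31 bp in WT at 6am and at 6pm and 30 bp after prednisolone. In GRdim it was 25, 24 and 26 bp.

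At core regions, a spacing of 29 to 31 bp stood above the surrounding level in WT and at or near it in GRdim. The shares were 7.64%, 5.82% (81 regions) and 6.61% (88 regions) in WT and 2.26% (21), 2.18% (30) and 2.53% (35) in GRdim, where the surrounding level was 2.32%, 2.73% and 2.40%. All peaks of the lists had 9.12%, 6.18% and 13.1% in WT and 2.39%, 2.31% and 2.24% in GRdim. At core regions with both borders in both genotypes, WT exceeded GRdim by 5.39 points at 6am (paired interval 3.42 to 7.47, 909 regions), 3.70 points at 6pm (2.18 to 5.28, 1271 regions) and 4.16 points after prednisolone (2.52 to 5.86, 1227 regions). The distance lay in this range in WT and not in GRdim at 68, 73 and 80 regions, the reverse at 19, 26 and 29, and in both at 2, 3 and 2. Over all regions of both lists, WT alone had it at 6.70%, 5.13% and 6.73% and GRdim alone at 1.89%, 2.29% and 2.18%.

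The difference rests on taking the strongest borders. With the closest pair of opposite borders around the peak centre, WT minus GRdim was -1.54 points at 6am (-3.00 to -0.165), 0.315 at 6pm and -0.163 after prednisolone.

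A spacing of 24 to 26 bp had the higher share in GRdim. The shares were 6.24%, 5.83% and 6.57% in GRdim (58, 80 and 91 regions), against 4.87%, 3.24% and 4.36% in WT (72, 45 and 58 regions). All peaks of the lists had 5.43%, 4.47% and 6.10% in GRdim and 4.17%, 2.74% and 3.43% in WT. At the same regions, WT minus GRdim was -2.36 points at 6pm (-3.93 to -0.833) and -2.36 points after prednisolone (-4.10 to -0.662). At 6am it was -1.54 points (-3.55 to 0.437), an interval that includes 0. GRdim alone had this distance at 48, 64 and 71 regions and WT alone at 34, 34 and 42, with backgrounds of 4.73%, 4.00% and 5.77% and of 4.02%, 2.19% and 3.33% over all regions of both lists.

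A spacing of 10 to 12 bp was seen at 151, 70 and 121 core regions in WT (10.2%, 5.03% and 9.09%) and at 53, 52 and 82 in GRdim (5.70%, 3.79% and 5.92%). All peaks of the lists had it at 10.3%, 5.38% and 13.6% in WT and 5.79%, 3.39% and 5.52% in GRdim. At the same regions WT exceeded GRdim by 5.72 points at 6am (3.39 to 8.12) and by 3.50 points after prednisolone (1.52 to 5.52). At 6pm the difference was 1.42 points (-0.0606 to 2.92), an interval that includes 0. In and next to this range, the commonest distance in GRdim was 13 bp at 6am (23 regions) and 14 bp at 6pm (21 regions), both outside it. It lay inside the range in GRdim after prednisolone (11 bp, 33 regions) and in WT (11, 12 and 11 bp, at 64, 26 and 46 regions). The part of the range limits in the genotype differences was not tested. These differences were also not run with the closest pair of borders or any other alternative. After prednisolone the core share in WT lay below that of other peaks, with a difference of -7.38 points (-9.57 to -5.12).

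**Figure D4:**
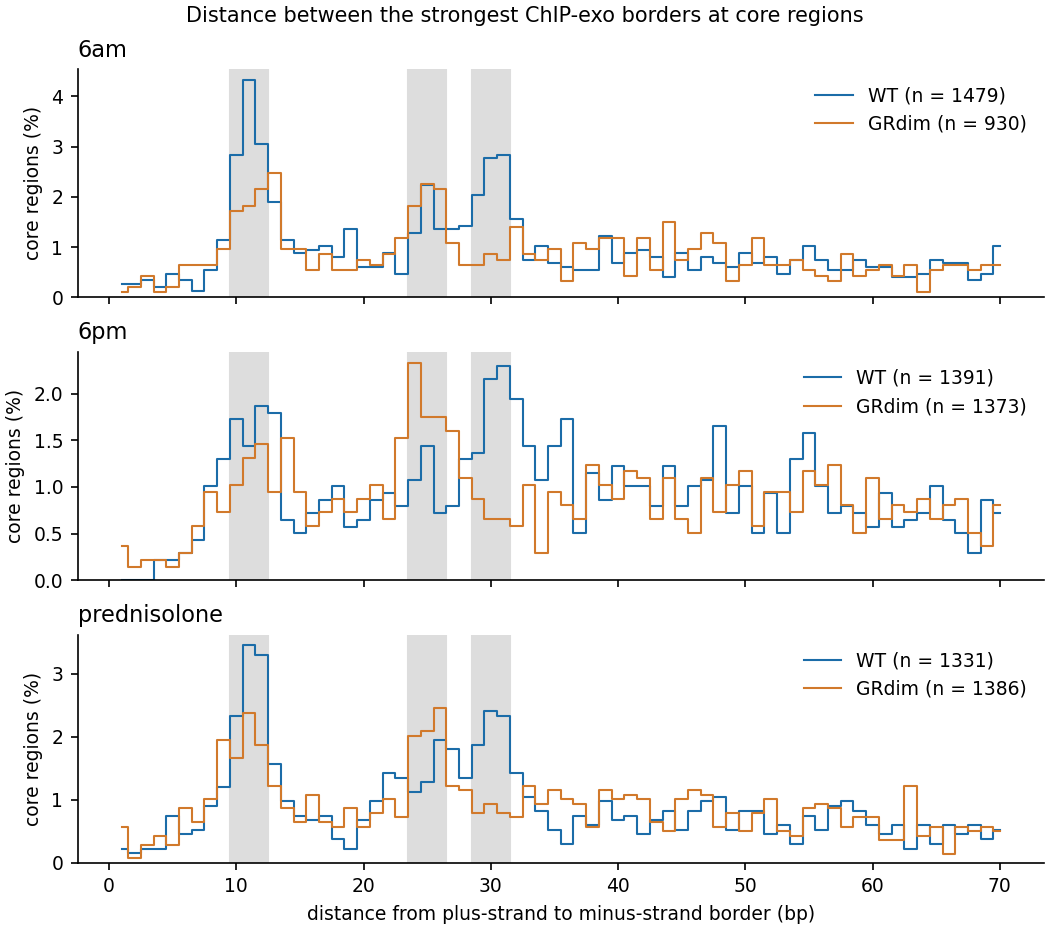
Spacing of the pair of strongest borders (bp, minus strand less plus strand) as a share of the core regions with both borders (percent), 1 panel per condition, for WT and GRdim. Grey bands mark 10 to 12, 24 to 26 and 29 to 31 bp, and the vertical scales differ between panels. The WT line stands above GRdim in the band at 29 to 31 bp in all 3 panels (7.64% against 2.26% at 6am).

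Among WT peaks, core regions had the 29 to 31 bp distance less often than peaks outside the core. The difference was -10.6 points after prednisolone (6.61% against 17.2%, interval -12.7 to -8.44) and -2.10 points at 6am (7.64% against 9.74%, -3.72 to -0.363). At 6pm it was -0.456 points (-1.77 to 1.04). Core peaks score higher, and the distance was commoner among high-scoring peaks, so the shares were compared within 5 classes of the score of the same list. The mean difference over the classes was then -8.62 (6am), -6.46 (6pm) and -11.9 points (prednisolone). In the second-highest class the distance was present at 5.79% of core regions and 22.1% of other peaks at 6am, at 3.88% and 16.9% at 6pm and at 3.09% and 21.5% after prednisolone.

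In the highest class the core shares were 22.2%, 13.5% and 18.2%, and those of other peaks 29.1%, 24.1% and 35.9%. The interval of the difference there excluded 0 at 6pm (-19.0 to -2.86) and after prednisolone (-23.8 to -11.2) but not at 6am (-14.7 to 0.662). Regions in all 3 WT lists and no GRdim list had this distance at 25.5%, 18.4% and 24.6% of those with both borders. With the closest pair of borders the core was also below the other peaks, at -1.34, -1.30 and -1.66 points, and none of the 3 intervals included 0. In GRdim core and other peaks did not differ beyond the counting interval in any condition for 29 to 31 bp.

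**Figure D5:**
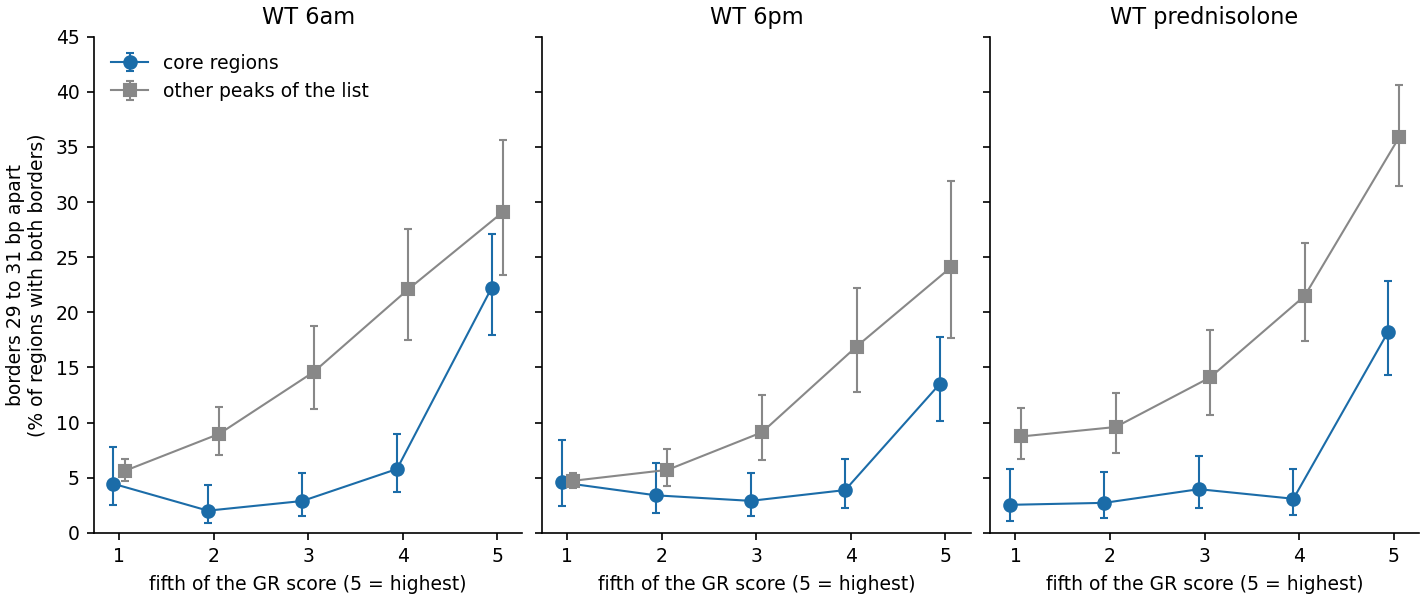
Share of WT peaks with the strongest borders 29 to 31 bp apart (percent of peaks with both borders, 95% Wilson intervals) by class of GR score in the same list, for core regions and other peaks. Other peaks have higher shares in each higher class, while core regions stay at 5.79% or less up to class 4 and in class 5 have 22.2% (6am), 13.5% (6pm) and 18.2% (prednisolone).

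At some core regions the distance recurred between WT libraries, at a lower share than over all regions of the 3 WT lists. It was 29 to 31 bp in all 3 WT libraries at 27 core regions (1.75%) and in at least 2 at 62 (4.01%), where 2.66% and 7.38% of all regions in the 3 WT lists reached those counts. In GRdim 0 core regions had it in all 3 libraries and 4 in exactly 2 (0.259%), where 0 and 0.196% of all regions in the 3 GRdim lists had it in all 3 and in at least 2. The largest ChIP-exo signal among the 27 was at chr4:150129585-150129796 (above), then at chr4:49572864-49573080 with 30 bp in all 3 WT libraries and at chr14:26001012-26001252 with 29 bp in all 3. chr4:49572864-49573080 had 38.7, 58.2 and 31.7 RPM in WT and 1.39, 5.14 and 2.57 RPM in GRdim.

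The 62 regions were chosen through their WT ChIP-exo borders, which need signal in WT, so their WT levels and their ratios of GRdim to WT are a description and no evidence of a difference. They stood high in WT and nearer the middle in GRdim. Their median GR ranks were 84.2, 109.5 and 91.8 in WT and 654, 432 and 758 in GRdim, where those of all other core regions lay between 772 and 804. Their median ChIP-exo signal was 14.4, 21.4 and 14.7 RPM in WT, against 2.67, 4.15 and 1.77 RPM at all other core regions, and 1.11, 3.78 and 2.30 RPM in GRdim, against 1.01, 2.26 and 1.93 RPM. The median ratio of GRdim to WT was 0.0879, 0.199 and 0.176 at the 62 and 0.474, 0.553 and 1.05 at the others. Of the 62, 51 lay in the best of 5 equal classes of mean WT rank.

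In GRdim, both borders were present at 39 of the 62 regions at 6am, 58 at 6pm and 57 after prednisolone. Their distance was 29 to 31 bp at 1, 4 and 1 of these and 24 to 26 bp at 1, 4 and 5. C/EBPβ peaks overlapped 87.1%, 95.2% and 82.3% of the 62 and 94.7%, 97.4% and 87.7% of the other core regions. The intervals for the 62 were 76.6% to 93.3%, 86.7% to 98.3% and 71.0% to 89.8%, so only the 6am share of the other core regions lay outside them.

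The distance of 24 to 26 bp recurred in all 3 GRdim libraries at 7 core regions (0.453%), where 0.342% of all regions in the 3 GRdim lists had it. It recurred in all 3 WT libraries at 1 core region (0.0647%), where 0.0950% of all regions in the 3 WT lists had it. Of the 7, those with the most signal were chr13:96625561-96625772, chr16:23294417-23294642 and chr6:113378108-113378339. At the first, the borders were 25, 25 and 26 bp apart in GRdim and 45, 46 and 26 bp apart in WT, with 2.40, 5.21 and 3.48 RPM in GRdim and 27.1, 26.1 and 24.1 RPM in WT. At the second they were 24, 25 and 26 bp apart in GRdim and 24, 24 and 49 bp in WT, with 5.56, 5.27 and 5.71 RPM in GRdim and 7.46, 12.2 and 5.17 RPM in WT, so WT was higher at 6am and 6pm and GRdim slightly higher after prednisolone. For 10 to 12 bp the counts were 11 core regions in all 3 WT libraries (0.712%, background 1.20%), 6 in all 3 GRdim libraries (0.388%, background 0.342%) and 2 in all 6. At chr3:84128909-84129131, 1 of the 2, the distances were 10, 11 and 10 bp in WT and 10, 10 and 11 bp in GRdim.

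The exact place of the strongest borders was seldom shared between libraries. Both borders lay within 2 bp of each other at 13.3% of core regions in WT at 6am and 6pm (14.9% of all regions of both lists). The share was 16.2% in WT at 6am and after prednisolone (24.8% of all) and 10.6% in WT at 6pm and after prednisolone (17.9% of all). Between GRdim libraries it was 7.23% for 6am with 6pm (7.09% of all), 10.3% for 6am with prednisolone (9.78%) and 7.52% for 6pm with prednisolone (6.87%). The WT 6am library shared both borders with the GRdim libraries of 6am, 6pm and prednisolone at 6.82%, 6.40% and 7.69% of core regions (7.02%, 5.32% and 7.05% of all). For WT at 6pm the shares were 6.12%, 6.37% and 5.21% (5.36%, 4.59% and 4.33% of all), and for WT after prednisolone 7.38%, 5.49% and 6.85% (6.99%, 5.20% and 6.60% of all). Shares outside the core lay below the core interval for WT 6pm with GRdim at 6am, 6pm and after prednisolone (3.35%, 3.21% and 2.73%). The same held for WT 6am with GRdim 6pm (4.21%) and GRdim prednisolone (5.53%), and for WT prednisolone with GRdim 6am (3.88%). Within GRdim it held for prednisolone with 6am (6.62%) and with 6pm (5.84%). Shares outside the core lay above the core interval in the WT pairs (15.8%, 34.2% and 24.8% in the order above). In the remaining pairs they lay within it. Their own counting error was not included.

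Over all 3 WT libraries both borders were shared at 86 of 1194 core regions with both borders (7.20%), and 37 of these 86 had them 29 to 31 bp apart. Of all such regions in the 3 WT lists, 13.5% shared both. Over the 3 GRdim libraries it was 25 of 830 (3.01%, background 2.95%), of which 9 had 24 to 26 bp, and over all 6 it was 6 of 718 (0.836%), of which 4 had 10 to 12 bp. The counts of 37, 9 and 4 do not require the range in every library. In every WT library 27 core regions had 29 to 31 bp, and in every GRdim library 7 had 24 to 26 bp. In all 6 libraries 2 had 10 to 12 bp. Without the GRdim 6am library the 2 remaining GRdim libraries shared both borders at 7.52%. With borders of at least 20 tags, 15.5% were shared over the 3 WT libraries and 11.7% over the 3 GRdim libraries.

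Core regions lay on all autosomes and on the X chromosome. They made up between 7.40% of GR regions on chromosome 16 and 12.9% on chromosome 15, and 3.31% on the X chromosome (4 of 121, interval 1.29% to 8.19%). The interval for chromosome 15, 10.6% to 15.6%, lay above the overall 10.1%. Those for chromosome 16, 5.54% to 9.82%, for chromosome 6, 6.40% to 9.72%, and for the X chromosome lay below it. The intervals were not adjusted for the number of chromosomes compared.

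Core regions were often close to each other. The median distance to the nearest other core region was 47.8 kb, with quartiles of 8.69 and 455 kb. Another core region lay within 25 kb of 659 core regions (42.7%, 40.2% to 45.1%), where 23.5% of all GR regions had one. The share was 30.5% for regions of 5 lists and 18.3% for regions in all 3 WT lists and no GRdim list. Grouped at that distance, the core regions formed 206 pairs, 54 groups of 3, 9 of 4 and 9 of 5 or more, and 886 stood alone.

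The largest group had 7 core regions in 44.5 kb at chr18:85041303-85085809, with 11 GR regions in all and C/EBPβ under all 3 conditions at 6 of the 7. Groups of 6 stood at chr13:24422097-24469738 and at chr2:167648986-167679345. The latter includes the region with the highest WT score at 6am, and only 3 of its 6 members had C/EBPβ under all 3 conditions. Another group, 5 core regions at chr2:27416222-27455641, includes chr2:27416222-27416458 and chr2:27452617-27452848. The borders of chr2:27452617-27452848 were 11, 12 and 11 bp apart in WT and 28, 21 and 25 bp apart in GRdim.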

How the data were processed

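The deposited ChIP-seq files list 200 bp peaks, each with a score set by the authors whose unit is unknown here. The lowest score of any GR list was 2.00, so an unlisted peak can be a weak one. Scores were ranked only within a list. For ChIP-exo, the deposited lists give 10 bp borders by strand, each with its tag count and the RPM computed by the authors, per the file headers. A deposited height signal per border was not used in any comparison. Bowtie, HOMER and mm9 are named per the submitters' processing notes, with roles, versions and thresholds that were not given in the sources used here. Coordinates refer to mm9 and are 1-based.

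Tags of listed borders were summed within 100 bp of the peak centre of the same list. The distance is that of the strongest minus-strand border less that of the strongest plus-strand border. Score classes are quintiles of the core regions' scores, and the lowest class takes in all lower scores. Ratios used regions with a border in both libraries. Intervals are 95% Wilson intervals for shares, Newcombe intervals for differences, Newcombe paired intervals at the same regions and binomial order statistics for medians. PCR duplicates can make tags dependent, and intervals cover counting error only.

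Named regions were the 10 of best mean rank, the highest of each list, the 5 with the largest rank difference in each direction between genotypes, 3 in each direction between prednisolone and 6am, the 3 with most ChIP-exo signal, the 3 densest groups and the 3 with most signal of each recurring border distance; chr2:27416222-27455641 was added after its values were seen. The members, lists, distance ranges and alternatives were chosen with earlier results of these data known. Sequence motifs, gene names and exon or intron labels were planned but need an mm9 genome and annotation (not used here). The 2 RNA polymerase II and 12 input samples were not analysed here. Functions were tested on simulated data. The software was matplotlib 3.10.9, scipy 1.17.1, pandas 2.3.3 and numpy 2.4.6 under Python 3.11.15.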

Additional observations from a re-analysis of the deposited data

Results flagged for a closer look

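From 6am to prednisolone the median ratio of ChIP-exo RPM at core regions was 0.756 in WT (95% interval 0.732 to 0.783, 1514 regions) and 1.55 in GRdim (1.48 to 1.63, 1346 regions). The genotypes thus went in opposite directions, each in 1 pair of pooled libraries, and the difference between them was not tested. With the strongest border of each strand only, the ratios were 0.928 in WT and 1.02 in GRdim. The mitochondrial share of listed tags was 28.6% at 6am and 30.5% after prednisolone in WT and 74.6% and 54.2% in GRdim. As a share of the whole library, to which RPM is scaled, these tags were 0.841% and 0.877% in WT and 1.61% and 1.18% in GRdim. Their part in the ratios was not tested.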

How the results depend on the processing

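No paired analysis was possible because each list is 1 pool and carries no replicate number of its own. Sequence motifs and gene positions were not run. Over 52 results and 201 alternative values, 95 stayed within the limits set around the main value, 104 moved and 2 were reversed. A value was called reversed only where the main interval excluded no difference. Other values that crossed no difference were counted as moved or within the limits. The cause of these moves was not tested. Score classes for border distances, the mean centre of a region and leaving out the GRdim 6am library were chosen after seeing the data. Values below run in the order 6am, 6pm, prednisolone, and WT before GRdim, unless named. Depth limits GRdim at 6am most, at a median of 33 tags per core region.

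With the higher-scoring 50% of each list 646 core regions were left. The C/EBPβ difference between core and other regions became 29.5 (6am) and 37.0 (6pm) points with the higher-scoring 50% of C/EBPβ peaks, 13.0 at 6pm with centres within 100 bp, 21.6 at 6pm with lists of equal length, and 14.6, 7.81 and 11.7 within score classes.

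The border share difference became 4.68 (WT 6am), 28.8 (WT 6pm), 25.4 (GRdim 6pm) and 5.10 (GRdim prednisolone) points with borders within 60 bp. With at least 20 tags it was 31.2, 55.8 and 9.22 in WT and 17.8, 50.2 and 29.9 in GRdim. Within score classes it was 0.757, 4.54, 2.90, 4.08, 3.49 and 0.804. Without the GRdim 6am library 94.1% of core regions had a border in every library.

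The ratio of GRdim to WT was 0.840 (6am) and 0.978 (prednisolone) with the strongest border of each strand, and 0.518, 0.269 and 0.676 with at least 20 tags. For WT 6pm to 6am, WT prednisolone to 6am, GRdim 6pm to 6am and GRdim prednisolone to 6am, the strongest borders gave 1.78, 0.928, 1.20 and 1.02, and at least 20 tags gave 2.31, 0.886, 1.43 and 1.09. Borders within 60 bp gave 1.75 and 1.43 for the GRdim pair.

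For 29 to 31 bp, WT minus GRdim was 7.69 at 6am with at least 20 tags, and -1.54, 0.315 and -0.163 with the closest pair of borders. Core minus other WT peaks was -12.5, -4.42 and -17.2 with at least 20 tags, -8.62 (6am) and -6.46 (6pm) within score classes, and -1.66 after prednisolone with the closest pair. For 24 to 26 bp, core minus other GRdim peaks was -5.14 (6am) and 0.304 (6pm) with at least 20 tags and 0.483 at 6pm with the closest pair. For 10 to 12 bp, WT minus GRdim was not run with any alternative.

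Shared border positions over 3 WT libraries, 3 GRdim libraries, all 6, and the prednisolone pair came to 0.754%, 0.361%, 0 and 0.896% at the same base. Within 5 bp they were 8.96%, 5.30% and, for the pair, 10.3%. With at least 20 tags they were 15.5%, 11.7%, 4.17% and 18.5%, and without GRdim 6am the GRdim value was 7.52%. At 10 kb the neighbour difference between core and other regions was 14.6 points.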

Other observations

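Borders crossed at a part of the core regions: the strongest plus-strand border lay downstream of the strongest minus-strand border at 16.3%, 9.56% and 18.3% of WT regions with both borders at 6am, 6pm and after prednisolone, and at 18.5%, 12.8% and 18.7% in GRdim. Both 6pm libraries had the lowest share of their genotype. The middle of the pair lay a median of 17.0 to 20.5 bp from the GR peak centre in the 6 libraries.

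At 6am the core regions with borders 29 to 31 bp apart in WT had a median ChIP-exo signal of 9.62 RPM against 2.73 RPM for the others with both borders, and those 10 to 12 bp apart had 4.70 against 2.71 RPM. Those 24 to 26 bp apart had 2.47 against 2.89 RPM. In GRdim at 6am the medians were 1.20 against 1.90 RPM at 29 to 31 bp and 3.16 against 1.80 RPM at 10 to 12 bp.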
